A study of Mus musculus with 12 samples.

Results

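The effect of losing the Lair1 gene was set against the effect of lacking LAIR-1 at the cell surface, gene by gene, in group 2 innate lymphoid cells (ILC2s) of the mouse lung. For each gene the quantity was a difference of differences on the log2 scale, (KO minus WT) minus (LAIR-1- minus LAIR-1+). A value above 0 means that the KO cells stood higher relative to WT than the LAIR-1- cells stood relative to LAIR-1+, and a value of 0 means that both log2 fold changes were equal. All genes listed in both deposited count tables were taken, which were 17522 of the 22440 genes listed in either, and 15246 of them had enough counts to be tested.

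The KO group held 3 libraries (13, 14 and 15) of ILC2s from mice deficient for LAIR-1, and the WT group held 3 libraries (9, 10 and 11) of ILC2s from wild-type mice. The LAIR-1- group held 3 libraries (7, 8 and 10) of wild-type ILC2s without surface LAIR-1, and the LAIR-1+ group held 3 libraries (1, 2 and 3) of wild-type ILC2s with it. In all 4 groups the donors were C57BL/6 mice of 8 weeks given IL-33 (0.5 µg per mouse) into the nose 3 times, so no group represents resting ILC2s. After the sort the cells spent 24 hours in medium containing IL-2 and also IL-7, at 10 ng per mL of each. The labels name no LAIR-1 sort for the WT libraries, which may contain cells of both surface types, and do not say whether libraries of a group came from separate animals. The p-values therefore measure the spread between these libraries, which may be technical.

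ILC2s are tissue lymphocytes without an antigen receptor that respond to epithelial alarm cytokines such as IL-33 by secreting IL-5, IL-13 and GM-CSF. LAIR-1 is a receptor for collagens and other proteins with collagen-like domains, and its cytoplasmic tail carries tyrosine-based inhibitory motifs that recruit the phosphatases SHP-1 and SHP-2. A constitutive gene deletion removes the receptor from every cell type of the animal, whereas a sort by surface protein separates cells that all carry an intact gene. The difference of differences asks in which genes these routes to LAIR-1 negative cells gave unequal changes.

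The libraries of the 2 experiments stood apart from each other. The first principal component took 48.3% of the variance and separated the KO and WT libraries from the sorted ones, and WT 9 and WT 10 each stood apart on a further component (13.7% and 10.6%). Total estimated counts were between 18061470 and 20878649 in the KO and WT libraries and between 18885002 and 28290487 in the sorted libraries. The spread between replicates, as a biological coefficient of variation, was 0.604 when the KO and WT libraries were taken alone, 0.134 for the sorted libraries alone and 0.402 in the joint fit, so the joint fit assigned the KO and WT libraries a smaller spread, and the sorted libraries a larger one, than each showed alone. Xist, the RNA of the inactive X chromosome, reached 55.9 to 88.1 CPM (counts scaled to library size, by TMM) in every KO and WT library and at most 0.384 CPM in every sorted library, so the sex of the mice and the experiment cannot be told apart. Each log2 fold change was taken within 1 experiment. Summed over 13 ILC2 markers, the authors' CPM were 11270 to 14030 in KO, 9089 to 10240 in WT, 8596 to 9100 in LAIR-1- and 8217 to 9443 in LAIR-1+ libraries. The 13 include Il5 and Klrg1, which are among the results below, and Il13 and Areg. Il5 alone was at 7256 to 9613 CPM (TMM) in KO and 4172 to 5214 CPM in WT, a large part of these sums. The higher sum in KO is therefore not a separate measure of ILC2 content. The summed markers of other cell types were low but moved with some groups. LAIR-1- libraries were above LAIR-1+ libraries without overlap for NK/ILC1 (45.0 to 56.2 against 16.3 to 32.1), T cell (58.9 to 74.0 against 48.1 to 58.3), B cell (11.9 to 31.7 against 6.92 to 10.7), eosinophil (6.67 to 9.41 against at most 2.26) and endothelial markers (34.0 to 36.7 against 20.6 to 23.5). The same held for ILC3 markers (4.17 to 6.91 against 2.25 to 3.59). LAIR-1- libraries were below LAIR-1+ libraries without overlap for macrophage or monocyte (5.69 to 8.70 against 22.3 to 30.7), dendritic cell (33.5 to 35.5 against 36.2 to 44.8) and epithelial markers. KO and WT libraries did not overlap for endothelial (21.3 to 39.0 against 16.8 to 19.8) and epithelial markers, given below. Some of these sums rest on a single gene and do not measure the content of a cell type. The endothelial sum was Pecam1 alone in the KO, WT and LAIR-1- libraries. The eosinophil sum was Ccr3 alone in the LAIR-1- libraries, where Siglecf was undetected, though not in every LAIR-1+ library. The part of these transcripts in the results was not tested. Bulk libraries were used, in which fewer cells of a type and less RNA per cell cannot be told apart.

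Lair1 (minus strand of mm10 chromosome 7, 4003402 to 4063204) was the gene on which both comparisons rest. It was at 0.408, 0 and 3.20 CPM in KO 13, 14 and 15, against 3.56, 10.6 and 7.43 CPM in WT 9, 10 and 11. It was at 1.15, 0.603 and 2.03 CPM in LAIR-1- 7, 8 and 10, against 9.10, 13 and 12.8 CPM in LAIR-1+ 1, 2 and 3. Neither pair of groups overlapped, although the library labelled KO 15 held 67 counts, close to the 70 of WT 9. The log2 fold changes were -2.58 ± 1.06 for KO minus WT and -3.18 ± 1.08 for LAIR-1- minus LAIR-1+ (SE, n = 3 libraries per group). At these low counts neither passed in the joint fit (edgeR, adjusted p = 0.237 and 0.565). Their difference of 0.60 ± 1.43 did not pass either (adjusted p = 0.951).

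The difference passed an adjusted p of 0.05 for 29 of the 15246 genes tested (0.19%), 17 above 0 (0.112%) and 12 below 0 (0.0787%). Over all genes tested the median difference was 0.02 and 51.6% of genes were above 0. An unadjusted p under 0.05 was reached by 9.43% of all genes tested, by 4.94% above 0 and by 4.49% below 0. When the fit was restricted to the 4615 genes averaging 50 CPM or more, 53 passed (1.15%), 34 above 0 (0.737%) and 19 below 0 (0.412%), and with DESeq2 231 genes passed. Among the 29 genes, 21 had log2 fold changes of opposite sign in the 2 comparisons, against 46.6% of all genes, a share that choosing genes by their difference favours. The larger of the 2 changes was KO minus WT in 11 of the 12 genes below 0, but in only 6 of the 17 genes above 0, where the drop in LAIR-1- cells was more often the larger change. Over all genes tested, KO minus WT was the larger in 66.9%. Where groups of these genes are said below not to overlap, choosing genes by their difference favours such a gap. The share of all genes without overlap was not counted. The genes above 0 included 3 secreted or receptor genes of the type 2 response (Csf2, Il5 and Il1r2), collagen genes (Loxl2, P4ha2 and Col18a1) and the peptide hormone genes Pcsk1 and Calcrl, while those below 0 included Pxdc1, Epcam, Cmtm7, Pes1, Gclm and Klrg1. In each of the 12 fits with 1 library left out, all 29 genes had the same sign as in the fit to all libraries. Of the 29, only Csf2, Il1r2 and Pxdc1 passed in every one of those 12 fits, and the number of genes that passed was between 3 (without LAIR-1- 7, and also without LAIR-1+ 1) and 236 (without WT 11).

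**Figure D1:**
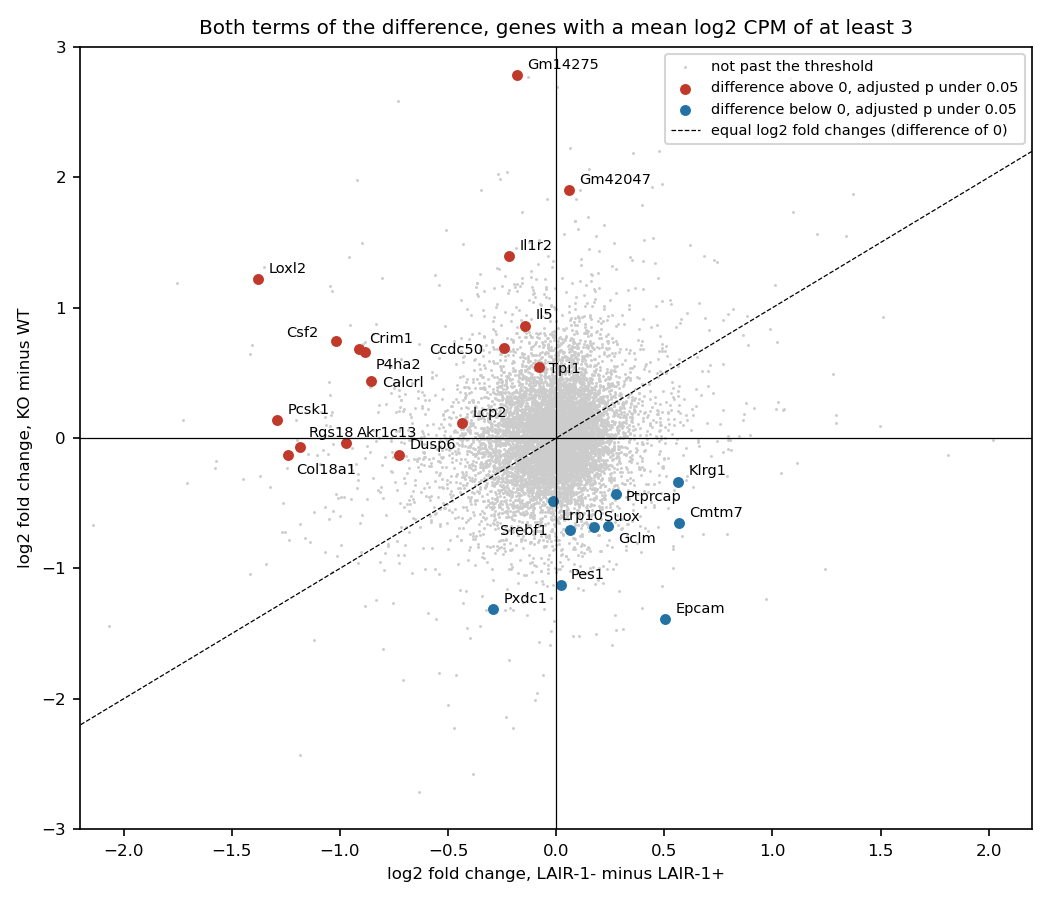
Log2 fold change of KO minus WT (y axis) against LAIR-1- minus LAIR-1+ (x axis) for genes whose mean log2 CPM over the 12 libraries was 3 or more; the dashed line marks equal changes, red and blue points passed above and below 0. Of the 9604 genes, 12 lie outside the axes, and most of the named red points lie in the upper left, where KO was above WT and LAIR-1- below LAIR-1+.

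Csf2, which encodes GM-CSF, a cytokine that sustains eosinophils and myeloid cells, gave the smallest p of all genes. It lies on the minus strand of chromosome 11 (54247271 to 54249667). It was at 1006, 1139 and 1126 CPM in KO 13, 14 and 15, against 693, 684 and 573 CPM in WT 9, 10 and 11. It was at 330, 354 and 334 CPM in LAIR-1- 7, 8 and 10, against 742, 595 and 724 CPM in LAIR-1+ 1, 2 and 3. All KO libraries were thus above all WT libraries, and all LAIR-1- libraries were below all LAIR-1+ libraries, with WT and LAIR-1+ at similar levels. The log2 fold changes were 0.75 ± 0.10 for KO minus WT and -1.02 ± 0.10 for LAIR-1- minus LAIR-1+, a difference of 1.76 ± 0.14 (SE, n = 3 libraries per group; adjusted p = 0.000411). Its adjusted p was at most 0.00608 with any 1 library left out.

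Il5, the growth and survival factor of eosinophils and one of the main products of ILC2s, lies on the plus strand of the same chromosome (53720794 to 53725106). It was at 7256, 9385 and 9613 CPM in the KO libraries, against 4172, 5045 and 5214 CPM in the WT libraries. It was at 3616, 3948 and 3897 CPM in the LAIR-1- libraries, against 3844, 4609 and 4197 CPM in the LAIR-1+ libraries. The KO libraries were all above the WT libraries, whereas the sorted groups overlapped. The difference was 1.01 ± 0.16 (adjusted p = 0.0283), made of 0.86 in KO minus WT and -0.14 in LAIR-1- minus LAIR-1+. Among the fits with 1 library left out, the call held in those without KO 13, WT 9 or WT 11; with any of the other 9 left out it was lost, with an adjusted p of up to 0.119.

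Il5 and Csf2 belong to the cytokine gene cluster of chromosome 11, and P4ha2, a gene past the threshold with another role, lies between them. From the start of Il5 to the end of Csf2, an interval of 528874 bases, the tables list 13 genes, of which 12 were tested. Il5 and Csf2 set the ends of the interval because they passed above 0, so the counts in it are a description. Over all genes tested, 0.19% passed, 9.43% had an unadjusted p under 0.05 and 51.6% were above 0. Of the 10 other genes tested in the interval, P4ha2 passed, 3 (P4ha2 among them) had an unadjusted p under 0.05 and 8 were above 0. They included 4933405E24Rik, next to Csf2, at 2.06 ± 0.38 (adjusted p = 0.0625), and Irf1, an interferon-regulated transcription factor gene, at 0.54 ± 0.36 (adjusted p = 0.725). Gm12214, above 0 with an adjusted p of 0.314, overlaps Il5 on the other strand, and the sources used here do not say whether reads were counted by strand. Il13 and Il4, the cytokine genes on the Il5 side outside this interval, did not pass and had opposite signs. Il13 was at 116 ± 14.5 CPM in KO and 52.4 ± 4.37 CPM in WT, and at 224 ± 58.4 CPM in LAIR-1- and 174 ± 8.08 CPM in LAIR-1+ (SD, n = 3 each), a difference of 0.78 ± 0.22 (adjusted p = 0.286). Il4 was at 11.3 ± 1.79 CPM in KO and 11.1 ± 4.54 CPM in WT, and at 28.9 ± 3.61 CPM in LAIR-1- and 15.5 ± 0.995 CPM in LAIR-1+ (SD, n = 3 each), a difference of -0.87 ± 0.40 (adjusted p = 0.529).

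The 250 bases upstream of both cytokine genes are shown because both genes were higher in KO than in WT while the sorted cells were separated for Csf2 alone, and because GATA3, the lineage-defining transcription factor of ILC2s, binds sites with a GATA core. The sequences are from RefSeq on GRCm38.p6, 5′ to 3′ on the strand of the gene, with GATA and its reverse complement TATC in capitals.
Il5 (chr11:53720544-53720793, plus strand): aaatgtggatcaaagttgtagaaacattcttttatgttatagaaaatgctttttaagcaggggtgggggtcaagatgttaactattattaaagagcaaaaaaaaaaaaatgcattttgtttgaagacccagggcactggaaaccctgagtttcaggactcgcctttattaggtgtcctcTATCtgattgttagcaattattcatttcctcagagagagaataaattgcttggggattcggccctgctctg
Csf2 (chr11:54249900-54250149, minus strand): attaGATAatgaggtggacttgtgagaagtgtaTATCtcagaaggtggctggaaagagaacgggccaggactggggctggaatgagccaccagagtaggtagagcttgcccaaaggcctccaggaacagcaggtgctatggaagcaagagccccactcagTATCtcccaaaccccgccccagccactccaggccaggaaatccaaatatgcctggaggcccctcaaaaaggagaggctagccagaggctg
The Il5 window holds 1 match, beginning at position -71 from the RefSeq start, and the Csf2 window holds 3 matches. The 4 letters occur on either strand in 53.62% of the 32851 RefSeq promoter windows, so a match is common. They occur in 48.15% of the 27 windows that belong to genes past the threshold. The start of Csf2 in the deposited tables lies 232 bases downstream of the RefSeq start used here. Gata3 itself was at 979 ± 83.0 CPM in KO and 1263 ± 103 CPM in WT, and at 1193 ± 50.7 CPM in LAIR-1- and 1327 ± 24.9 CPM in LAIR-1+ (SD, n = 3 each). Its difference was -0.21 ± 0.11 and did not pass (adjusted p = 0.581). The part of GATA3 in the results for Il5 and Csf2 was not tested.

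Genes that build or modify collagen, the class of ligand that LAIR-1 binds, were on average above 0. Of 10 tested members of a list of collagens and collagen-modifying enzymes, 2 passed, both above 0, another 2 had an unadjusted p under 0.05 above 0 and none below, and 9 were above 0. Over all genes tested, 0.112% passed above 0, 4.94% were above 0 at an unadjusted p under 0.05 and 51.6% were above 0 at any p. The list was chosen with earlier results of these data known. The median difference of the list was 0.65, against 0.02 over all genes, and the members ranged from -3.45 to 2.02. The median was 1.07 without WT 11, but 0.45 without KO 14, 0.44 without WT 9 and WT 10 together and 0.50 in limma-trend on log2(CPM + 1). P4ha2, a catalytic subunit of the prolyl hydroxylase that collagen needs to form stable helices, was at 85.9, 106 and 124 CPM in the KO libraries, against 67.4, 69.1 and 63.6 CPM in the WT libraries. It was at 27.0, 28.5 and 32.1 CPM in the LAIR-1- libraries, against 55.2, 49.1 and 57.7 CPM in the LAIR-1+ libraries. As for its neighbour Csf2, KO lay above WT and LAIR-1- below LAIR-1+ without overlap, and the difference was 1.54 ± 0.20 (adjusted p = 0.0147). Col18a1, the chain of a basement membrane collagen from which endostatin is released, separated the sorted groups but not KO from WT. It was at 609 ± 47.8 CPM in KO and 667 ± 75.3 CPM in WT, which overlapped, and at 362 ± 53.2 CPM in LAIR-1- and 857 ± 70.9 CPM in LAIR-1+ (SD, n = 3 each), a difference of 1.11 ± 0.16 (adjusted p = 0.0184). P4hb, which encodes the other subunit of prolyl hydroxylase, had a difference of 0.36 ± 0.11 (adjusted p = 0.343) and Plod3, a lysyl hydroxylase, one of 0.73 ± 0.29 (adjusted p = 0.447).

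Loxl2, a lysyl oxidase-like enzyme that crosslinks collagen and is not on that list, had one of the widest gaps. It was at 17.1, 20.6 and 21.0 CPM in KO, against 10.7, 5.53 and 9.03 CPM in WT. It was at 17.2, 20.7 and 21.6 CPM in LAIR-1-, against 52.8, 52.8 and 49.6 CPM in LAIR-1+. Again neither pair of groups overlapped, and the 2 changes, 1.22 ± 0.22 and -1.38 ± 0.22, were of like size and opposite sign. The difference was 2.60 ± 0.31 (adjusted p = 0.0105). Loxl2 and P4ha2 each lost the call when LAIR-1- 7 or either of LAIR-1+ 1 and 3 was left out, with an adjusted p of up to 0.0716 for Loxl2 and 0.0736 for P4ha2. Col18a1 lost it without WT 10 or any sorted library other than LAIR-1- 10 (adjusted p up to 0.0842).

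A pair of genes of peptide hormone signalling was also above 0. Pcsk1 encodes a prohormone convertase that cuts peptide precursors, and was at 607 to 897 CPM in KO and 655 to 775 CPM in WT, which overlapped, but at 173 to 223 CPM in LAIR-1- and 444 to 538 CPM in LAIR-1+. Its difference was 1.43 ± 0.20 (adjusted p = 0.0184), nearly all of it from the LAIR-1- minus LAIR-1+ change of -1.29 ± 0.14. Calcrl encodes the receptor that binds the neuropeptide CGRP once paired with RAMP1. It was at 131 to 143 CPM in KO and 92.5 to 120 CPM in WT, and at 87.3 to 104 CPM in LAIR-1- and 155 to 201 CPM in LAIR-1+, a difference of 1.30 ± 0.19 (adjusted p = 0.0184). Its partner Ramp1 had a difference of -0.12 ± 0.14 (adjusted p = 0.891), with -0.82 in KO minus WT and -0.70 in LAIR-1- minus LAIR-1+. Calca, the gene of CGRP, was at 14.9 to 18.8 CPM in KO and 32.0 to 37.2 CPM in WT, and at 19.3 to 23.2 CPM in LAIR-1- and 21.3 to 27.1 CPM in LAIR-1+. Its difference of -0.78 ± 0.24 did not pass (adjusted p = 0.314). The calls were lost without WT 10, either of LAIR-1- 7 and 8 or any LAIR-1+ library for Pcsk1 (adjusted p up to 0.0841), and without WT 10 or any sorted library for Calcrl (up to 0.0845). Calcrl also did not pass in limma-voom with weights per experiment (adjusted p = 0.0642).

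Il1r2, the decoy receptor that binds IL-1 without signalling, was at 245, 249 and 248 CPM in the KO libraries, against 73.7, 102 and 106 CPM in the WT libraries. It was at 184, 190 and 193 CPM in the LAIR-1- libraries, against 201, 238 and 221 CPM in the LAIR-1+ libraries. The KO libraries were all above the WT libraries while the LAIR-1- libraries were slightly below the LAIR-1+ libraries, and the WT libraries were the lowest of the 12. The difference was 1.62 ± 0.17 (adjusted p = 0.003) and at most 0.0255 as an adjusted p with any 1 library left out. Crim1, a transmembrane protein that binds bone morphogenetic proteins, was at 19.0 to 23.3 CPM in KO and 12.1 to 14.3 CPM in WT, and at 14.8 to 17.6 CPM in LAIR-1- and 29.6 to 31.3 CPM in LAIR-1+, a difference of 1.59 ± 0.23 (adjusted p = 0.0184).

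In 3 regulators of intracellular signalling above 0 the change between the sorted cells was the larger. Rgs18, which shuts off G protein signalling, was at 63.5 to 81.4 CPM in KO and 72.9 to 74.9 CPM in WT, and at 31.4 to 36.1 CPM in LAIR-1- and 72.6 to 78.6 CPM in LAIR-1+, a difference of 1.11 ± 0.17 (adjusted p = 0.0184). Dusp6, a phosphatase that is induced by the kinase ERK and switches it off, was at 455 to 482 CPM in KO and 478 to 543 CPM in WT, and at 367 to 407 CPM in LAIR-1- and 630 to 664 CPM in LAIR-1+ (0.59 ± 0.10, adjusted p = 0.0355). Lcp2, the adaptor SLP-76 that assembles signalling complexes downstream of tyrosine kinases, was at 530 to 590 CPM in KO and 490 to 540 CPM in WT, and at 353 to 370 CPM in LAIR-1- and 472 to 508 CPM in LAIR-1+ (0.55 ± 0.09, adjusted p = 0.0486). In all 3 genes KO and WT overlapped and the sorted groups did not. Of the 16 tested ERK feedback regulators, Dusp6 passed and 3 more had an unadjusted p under 0.05 above 0 (Dusp4, Spry1 and Spry2), and 10 of the 16 were above 0. Over all genes tested, 51.6% were above 0, and 4.94% were above 0 at an unadjusted p under 0.05. The median of the list was 0.40, but -0.004 without KO 13, 0.09 without KO 14 and 0.51 without WT 11. Of the 15 tested genes of LAIR-1 signalling partners, Lcp2 passed, and Ptpn6 (SHP-1) was at -0.42 ± 0.16 (adjusted p = 0.433) and Ptpn11 (SHP-2) at 0.53 ± 0.23 (adjusted p = 0.514). Crim1 and Rgs18 lost the call without WT 10 or any sorted library (adjusted p up to 0.0967 and 0.11). Dusp6 and Lcp2 kept it only without KO 13 or WT 11 (up to 0.177 and 0.163), and in limma-voom each had an adjusted p of 0.0553.

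**Figure D2:**
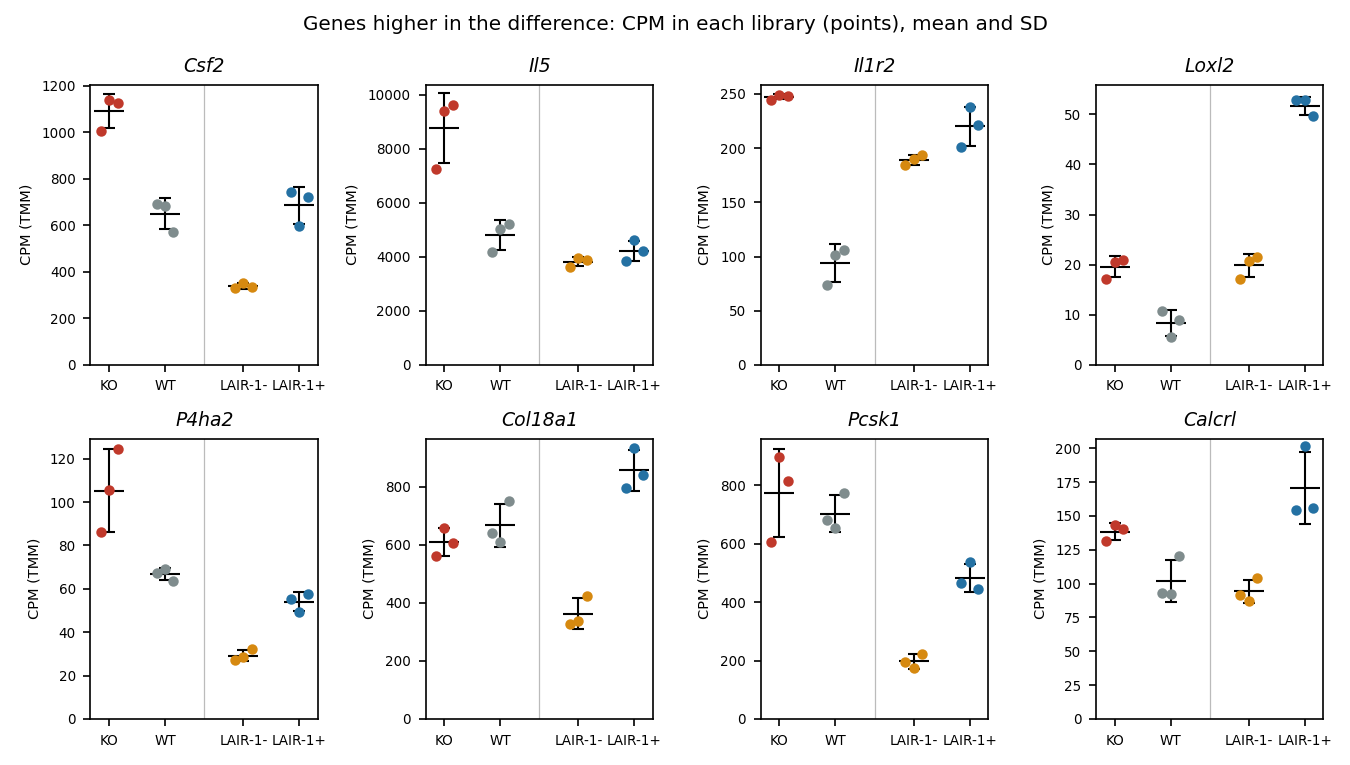
TMM-scaled CPM (y axis, from 0) in each library of the KO, WT, LAIR-1- and LAIR-1+ groups for 8 genes above 0 in the difference; points are libraries, lines the mean and SD of 3. Csf2, Loxl2, P4ha2, Calcrl and, with a smaller second gap, Il1r2 were higher in KO than in WT and lower in LAIR-1- than in LAIR-1+ without overlap, Col18a1 and Pcsk1 separated the sorted groups alone, and Il5 separated KO from WT alone. The genes were chosen by their difference, which favours such gaps.

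Metabolic enzymes were also among the genes above 0. Tpi1, the triosephosphate isomerase of glycolysis, was at 631, 608 and 636 CPM in the KO libraries, against 439, 409 and 435 CPM in the WT libraries, and at 569 to 591 CPM in LAIR-1-, against 586 to 627 CPM in LAIR-1+. Its difference of 0.63 ± 0.08 (adjusted p = 0.0147) came almost wholly from KO minus WT. Of 25 tested genes of glycolysis and the hypoxia response, Tpi1 passed, another 7 had an unadjusted p under 0.05 above 0 and none below, and 23 were above 0, with a median difference of 0.27. The shares over all genes tested were 4.94% above 0 at an unadjusted p under 0.05, and 51.6% above 0 at any p. The others with an unadjusted p under 0.05 were Pfkl (0.61 ± 0.12, adjusted p = 0.0851), Slc16a3, Pgam1, Hk2 (1.01 ± 0.26, adjusted p = 0.251), Aldoa, Hif1a and Pgk1. Akr1c13, an aldo-keto reductase, was at 326 to 415 CPM in KO and 363 to 417 CPM in WT, and at 99.4 to 103 CPM in LAIR-1- and 183 to 215 CPM in LAIR-1+, a difference of 0.93 ± 0.14 (adjusted p = 0.0184). Akr1c13 has close paralogs such as Akr1c12 (1.03 ± 0.19, adjusted p = 0.0646), between which the authors' counting may have split reads. Ccdc50, an adaptor protein gene, was at 87.4 to 94.8 CPM in KO and 46.6 to 61.9 CPM in WT, and at 68.4 to 73.5 CPM in LAIR-1- and 81.6 to 86.7 CPM in LAIR-1+ (0.93 ± 0.16, adjusted p = 0.0496). Tpi1 lost the call without WT 10, either of LAIR-1- 7 and 10, or either of LAIR-1+ 1 and 3 (adjusted p up to 0.0736), and Akr1c13 without WT 10 or any sorted library (up to 0.0848). Ccdc50 kept it only without WT 9 or WT 11 (up to 0.211), and did not pass when each experiment was given its own spread (adjusted p = 0.0735).

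Pxdc1, whose protein carries a PX domain, a fold that binds phosphoinositides, was the most stable of the genes below 0. It lies on the minus strand of chromosome 13 (34627834 to 34653486). It was at 307, 273 and 276 CPM in KO, against 750, 663 and 717 CPM in WT. It was at 131, 135 and 124 CPM in LAIR-1-, against 154, 158 and 163 CPM in LAIR-1+. Both groups lacking LAIR-1 were thus below their controls without overlap, and the gap was wider in KO. The log2 fold changes were -1.31 ± 0.07 and -0.29 ± 0.07, a difference of -1.02 ± 0.10 (adjusted p = 0.003), with an adjusted p of at most 0.0254 when any 1 library was left out. Of the named genes that passed below 0, Pxdc1 and Lrp10 had both changes of the same sign.

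Epcam, an adhesion molecule of epithelia that is also found on some lymphocytes, was at 16.2, 16.6 and 24.8 CPM in KO, against 46.6, 50.1 and 54.3 CPM in WT. It was at 29.9, 25.1 and 33.0 CPM in LAIR-1-, against 21.6, 19.7 and 20.8 CPM in LAIR-1+. Neither pair of groups overlapped, and the difference was -1.89 ± 0.27 (adjusted p = 0.0184). Of 8 epithelial markers, 6 are listed in the KO and WT table, and their summed CPM, Epcam included, were 15.7 to 30.4 in KO, 43.1 to 116 in WT, 22.4 to 30.1 in LAIR-1- and 31.5 to 102 in LAIR-1+. Of the 5 epithelial markers tested, Epcam alone was below 0; the other 4 were above 0, Krt8 with an unadjusted p under 0.05 (adjusted p = 0.501). Markers at 0 in every library of a group were Sftpc in WT and Sftpa1, Sftpb, Scgb1a1 and Krt8 in LAIR-1-, with none in KO or LAIR-1+. The part of epithelial RNA in the Epcam result was not tested.

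Cmtm7, a membrane protein gene of the chemokine-like MARVEL family, was at 95.1, 99.1 and 125 CPM in KO, against 169, 182 and 151 CPM in WT. It was at 535, 601 and 500 CPM in LAIR-1-, against 355, 350 and 398 CPM in LAIR-1+. The groups did not overlap in either experiment and the difference was -1.22 ± 0.16 (adjusted p = 0.0178). Klrg1, an inhibitory receptor for cadherins and a marker of mature ILC2s, was at 83.1, 108 and 87.2 CPM in KO, against 105, 119 and 127 CPM in WT. It was at 301, 347 and 319 CPM in LAIR-1-, against 203, 229 and 222 CPM in LAIR-1+. Only the sorted groups were separated, and the difference was -0.90 ± 0.16 (adjusted p = 0.0496). Ptprcap, which encodes a protein associated with CD45, was at 148 to 158 CPM in KO and 192 to 223 CPM in WT, and at 323 to 374 CPM in LAIR-1- and 267 to 305 CPM in LAIR-1+ (-0.71 ± 0.12, adjusted p = 0.0496). Epcam lost the call without WT 10 or any sorted library other than LAIR-1- 8, and Cmtm7 without WT 10, LAIR-1- 7 or either of LAIR-1+ 1 and 2 (adjusted p up to 0.0841 for both). Klrg1 kept it only without KO 14, WT 9 or WT 11 (up to 0.22) and Ptprcap only without WT 11 (up to 0.22). Neither passed in limma-voom (adjusted p = 0.0988 for Klrg1 and 0.189 for Ptprcap), and Klrg1 did not pass with a spread of its own for each experiment (0.0658).

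The other named genes that passed below 0 encode proteins of the nucleolus, redox defence and metabolism, and separated KO from WT. Pes1, a ribosome assembly factor, was at 44.9, 30.3 and 43.4 CPM in KO, against 82.2, 88.7 and 88.1 CPM in WT, and at 107 to 119 CPM in LAIR-1-, against 103 to 115 CPM in LAIR-1+ (-1.15 ± 0.19, adjusted p = 0.0419). Gclm, the modifier subunit of the enzyme that starts glutathione synthesis, was at 212, 150 and 186 CPM in KO, against 284, 285 and 307 CPM in WT, and at 167 to 186 CPM in LAIR-1-, against 146 to 160 CPM in LAIR-1+ (-0.92 ± 0.16, adjusted p = 0.0496). Suox, the sulfite oxidase of mitochondria, was at 59.8 to 62.7 CPM in KO and 93.4 to 107 CPM in WT, and at 78.7 to 91.3 CPM in LAIR-1- and 74.2 to 77.5 CPM in LAIR-1+ (-0.86 ± 0.13, adjusted p = 0.0281). In all 3 genes KO lay below WT without overlap, and LAIR-1- minus LAIR-1+ was at most 0.24 (Gclm). Srebf1, a transcription factor for lipid synthesis genes, was at 131 to 157 CPM in KO and 224 to 234 CPM in WT, and at 151 to 185 CPM in LAIR-1- and 156 to 166 CPM in LAIR-1+ (-0.77 ± 0.13, adjusted p = 0.0496). Lrp10, a membrane protein of the LDL receptor family, was at 284 to 296 CPM in KO and 389 to 416 CPM in WT, and at 396 ± 2.97 CPM in LAIR-1- and 400.1 ± 9.80 CPM in LAIR-1+ (SD, n = 3 each; -0.47 ± 0.08, adjusted p = 0.0496). These 5 genes kept the call in 1 to 5 of the 12 fits with 1 library left out, and every one of them kept it without WT 11. With any 1 of WT 10 or the sorted libraries left out none of the 5 passed, and the adjusted p went up to 0.163 for Pes1, 0.215 for Gclm and Srebf1, 0.143 for Suox and 0.185 for Lrp10. In limma-voom Suox (adjusted p = 0.0659), Srebf1 (0.0964) and Lrp10 (0.0964) did not pass, and Pes1 did not with each experiment's own spread (0.0739).

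**Figure D3:**
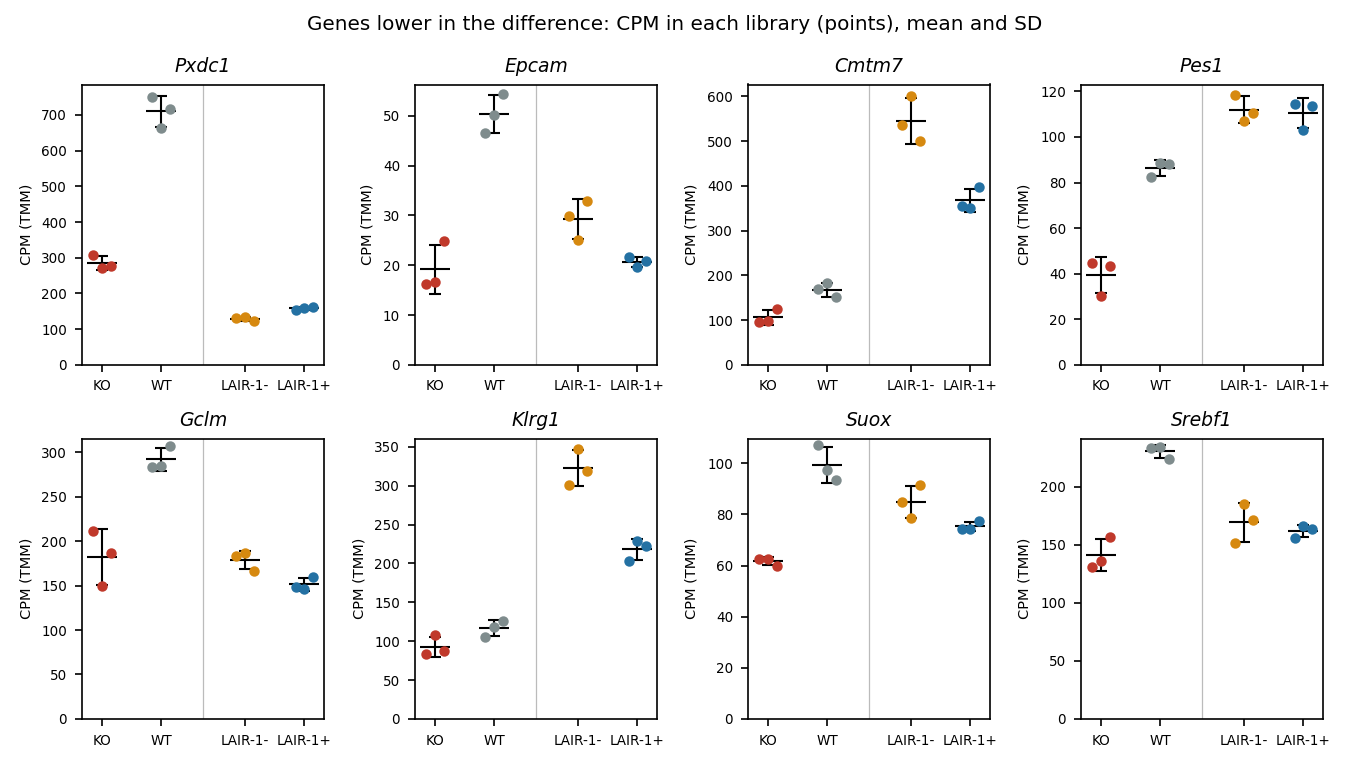
TMM-scaled CPM (y axis, from 0) in each library of the KO, WT, LAIR-1- and LAIR-1+ groups for 8 genes below 0 in the difference; points are libraries, lines the mean and SD of 3. Of the 8 genes all but Klrg1 were lower in KO than in WT without overlap, and Epcam, Cmtm7, Klrg1, Gclm and Suox were also higher in LAIR-1- than in LAIR-1+ without overlap. The genes were chosen by their difference, which favours such gaps.

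The remaining 4 genes past the threshold fell outside the rule for naming and are given as values. Gm42047 was at 96.9 ± 15.3 CPM in KO and 25.9 ± 6.85 CPM in WT, and at 91.5 ± 6.08 CPM in LAIR-1- and 87.9 ± 11.6 CPM in LAIR-1+ (SD, n = 3 each; difference 1.85 ± 0.27, adjusted p = 0.0184). Gm14275 was at 21.6 ± 1.56 CPM in KO and 3.12 ± 2.05 CPM in WT, and at 11.2 to 14.8 CPM in LAIR-1- and 14.1 to 15.2 CPM in LAIR-1+ (difference 2.96 ± 0.52, adjusted p = 0.0496). For both predicted genes the WT libraries were the 3 lowest of the 12. Mfsd9, a gene of the major facilitator transporter family, had 0 counts in each KO library, against 137, 111 and 61 counts in WT 9, 10 and 11, and 16 to 56 counts in LAIR-1-, against 45 to 80 counts in LAIR-1+. Plce1, which encodes phospholipase C epsilon, had 1, 0 and 1 counts in KO, against 30, 64 and 54 in WT, and 47 to 153 counts in LAIR-1-, against 20 to 40 counts in LAIR-1+. With KO at or near 0 counts no fold is given for these 2 genes; the adjusted p was 0.0184 for each, and neither passed in limma-voom (0.189 for Mfsd9, 0.223 for Plce1) or with each experiment's own spread (0.0862 and 0.0854), where Gm14275 did not pass either (0.102). With 1 library left out, Gm42047 passed in 6 of 12 fits (adjusted p up to 0.0855), Gm14275 only without WT 11 (up to 0.206), Mfsd9 in 6 (up to 0.0841) and Plce1 in 5 (up to 0.0967); none of the 4 passed without LAIR-1- 7 or without any 1 of the LAIR-1+ libraries.

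**Figure D4:**
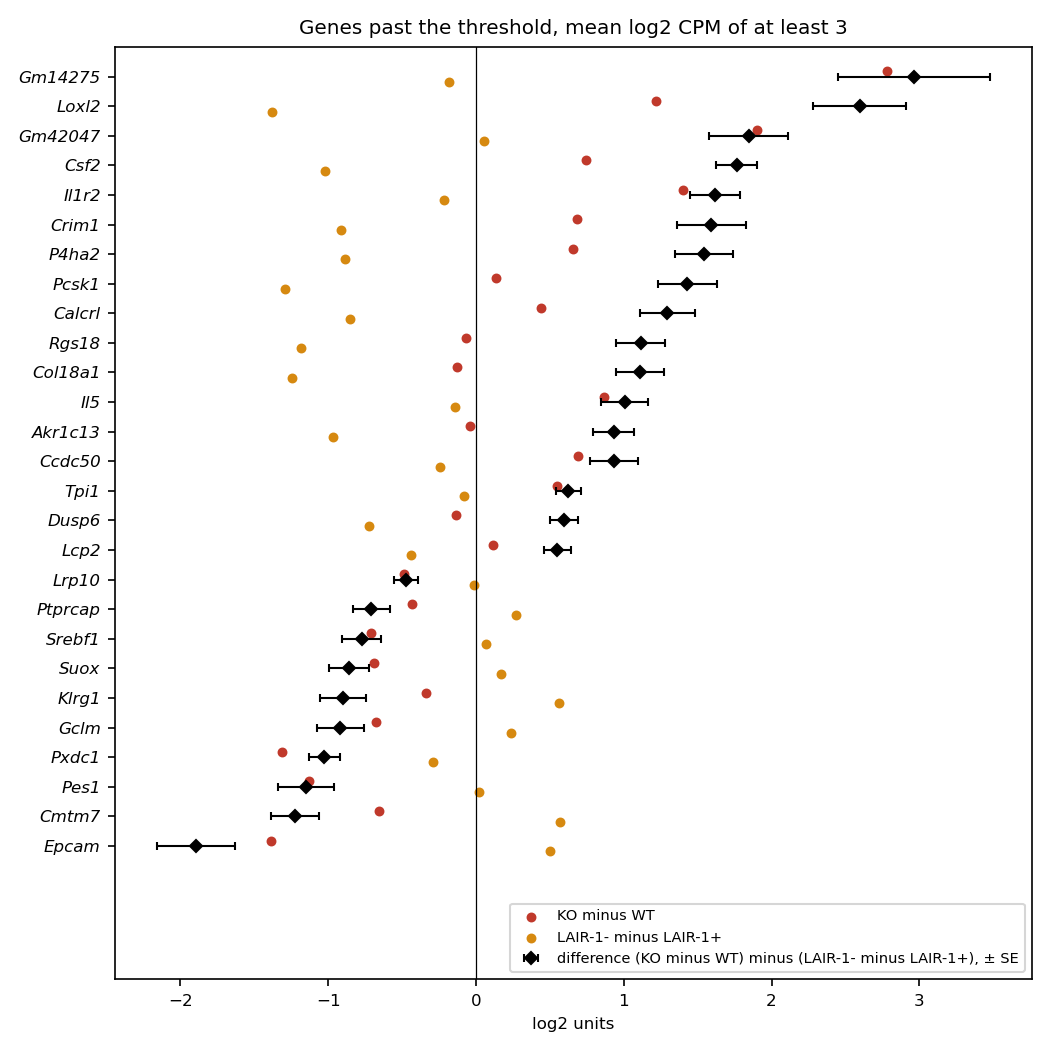
Difference (black diamonds, ± SE) and its terms, KO minus WT (red) and LAIR-1- minus LAIR-1+ (orange), in log2 units for the 27 genes past the threshold whose mean log2 CPM was 3 or more, in descending order of the difference. In most of the genes above 0 the orange point is the farther from 0, from Loxl2 at -1.38 to Lcp2 at -0.44, whereas below 0 the red point is the farther in all but Klrg1.

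Of the 16 ILC2 genes named whatever their p, 3 passed (Il5, Csf2 and Klrg1), against 0.19% of all genes tested. The transcription factor gene Rora was at 325 ± 5.06 CPM in KO and 377 ± 62.3 CPM in WT, and at 294 ± 14.8 CPM in LAIR-1- and 359 ± 27.8 CPM in LAIR-1+ (SD, n = 3 each), a difference of 0.07 ± 0.15 (adjusted p = 0.943). Il1rl1, the IL-33 receptor gene, had a difference of -0.01 ± 0.16 (adjusted p = 0.998) with levels of 959 ± 113 CPM in KO, 1017 ± 78.8 CPM in WT, 734 ± 83.6 CPM in LAIR-1- and 773 ± 92.1 CPM in LAIR-1+. Mki67, a marker of proliferation, was 0.02 below 0 (-0.02 ± 0.16, adjusted p = 0.992). Il7r, the receptor gene for the IL-7 in the medium, was at 146 to 186 CPM in KO and 109 to 123 CPM in WT, and at 67.3 to 90.8 CPM in LAIR-1- and 80.5 to 88.1 CPM in LAIR-1+ (0.66 ± 0.18, adjusted p = 0.253). Il9 had a difference of 1.37 ± 0.86 (adjusted p = 0.701), with 132 ± 88.2 CPM in KO and 22.6 ± 6.43 CPM in WT, and 10.7 ± 4.98 CPM in LAIR-1- and 4.72 ± 3.14 CPM in LAIR-1+. Areg, the epithelial repair factor amphiregulin, was at -0.54 ± 0.18 (adjusted p = 0.374). The others were Il2ra (-0.25 ± 0.20, adjusted p = 0.799), Icos (-0.31 ± 0.20, 0.705), Arg1 (0.24 ± 0.14, 0.663) and Pdcd1 (0.18 ± 0.16, 0.829).

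Lists of pathway genes were described by their counts and medians. Over all genes tested, 4.94% were above 0 and 4.49% below 0 at an unadjusted p under 0.05, and 51.6% were above 0 at any p. Of 19 tested effector cytokines, 2 passed, both above 0, and 7 in all were above 0 and 4 below 0 at an unadjusted p under 0.05, with a median difference of 0.68. That median was 0.44 without KO 14, 0.36 among the members averaging 50 CPM or more, and also 0.36 in limma-trend on log2(CPM + 1). Besides Csf2, Il5, Il13, Il4 and Areg these were Lif (1.79 ± 0.59), Tnf (1.35 ± 0.41), Il22, Hbegf, Ltb (-0.69 ± 0.20) and Calca. Of 7 tested chemokines none passed, 3 (Cxcl3, Cxcl2 and Ccl1) were above 0 and none below at an unadjusted p under 0.05, and the median was 1.69, with 0.58 in limma-trend on log2(CPM + 1), 0.78 without LAIR-1+ 2 and 1 member averaging 50 CPM or more. None of the 28 tested genes of the unfolded protein and integrated stress response passed, but 11 were above 0 and 1 below at an unadjusted p under 0.05, and 23 were above 0 (median 0.27, with 0.29 in KO minus WT and 0.04 in LAIR-1- minus LAIR-1+). They included Xbp1, the transcription factor of secretory cells, at 756 to 1054 CPM in KO and 558 to 660 CPM in WT, and at 619 to 644 CPM in LAIR-1- and 667 to 723 CPM in LAIR-1+ (0.76 ± 0.16, adjusted p = 0.112). The chaperone gene Hspa5 (0.41 ± 0.13, adjusted p = 0.314) and the asparagine synthetase gene Asns (0.49 ± 0.12, adjusted p = 0.183) were also among them.

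Among 26 tested targets of NRF2, a transcription factor of redox defence, Gclm passed below 0. At an unadjusted p under 0.05, 9 were below 0 and 1 above, and 21 of the 26 were below 0, with a median of -0.26. The shares over all genes tested at that p were 4.49% below 0 and 4.94% above 0. Srxn1, which repairs oxidised peroxiredoxins, was at 105 to 123 CPM in KO and 179 to 189 CPM in WT, and at 65.7 to 87.7 CPM in LAIR-1- and 77.2 to 88.2 CPM in LAIR-1+ (-0.63 ± 0.16, adjusted p = 0.23). Ftl1, the ferritin light chain, was at -0.47 ± 0.11 (adjusted p = 0.21). Of 29 tested interferon-induced genes none passed, 6 were above 0 and 2 below at an unadjusted p under 0.05, and 24 were above 0. Their median of 0.59 was made of -0.21 in KO minus WT and -0.80 in LAIR-1- minus LAIR-1+, whose groups also did not overlap in macrophage or monocyte markers; the part of those cells was not tested. Gbp7, a guanylate-binding protein gene, was at 53.5 to 63.7 CPM in KO and 47.7 to 67.7 CPM in WT, and at 50.1 to 59.8 CPM in LAIR-1- and 94.2 to 136 CPM in LAIR-1+ (0.99 ± 0.23, adjusted p = 0.183). Leaving out LAIR-1+ 1 gave a median of 0.25, and leaving out LAIR-1- 8 gave one of 0.36.

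All 13 mitochondrially encoded mRNAs were above 0, against 51.6% of all genes tested. None passed, and 5 were above 0 at an unadjusted p under 0.05, against 4.94% of all genes tested. The median of these mRNAs was 0.44. Their share of all counts was 0.331% in WT 11 and 0.55% to 0.689% in each of the other KO and WT libraries, and the median was 0.29 without WT 11 and likewise without LAIR-1- 10, but 0.86 without WT 9 and WT 10 together. Ribosomal protein genes (83 tested, median 0.04), cell cycle genes (32, median -0.09), nuclear-encoded respiratory chain genes (31, median -0.08) and cholesterol and fatty acid synthesis genes (30, median -0.07) lay near 0, with no gene past the threshold except Srebf1. Of the 2 log2 fold changes, the correlation across all genes tested was 0.08 (Pearson) and 0.13 across the 4615 genes averaging 50 CPM or more; genes are not independent replicates and the value is a description.

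**Figure D5:**
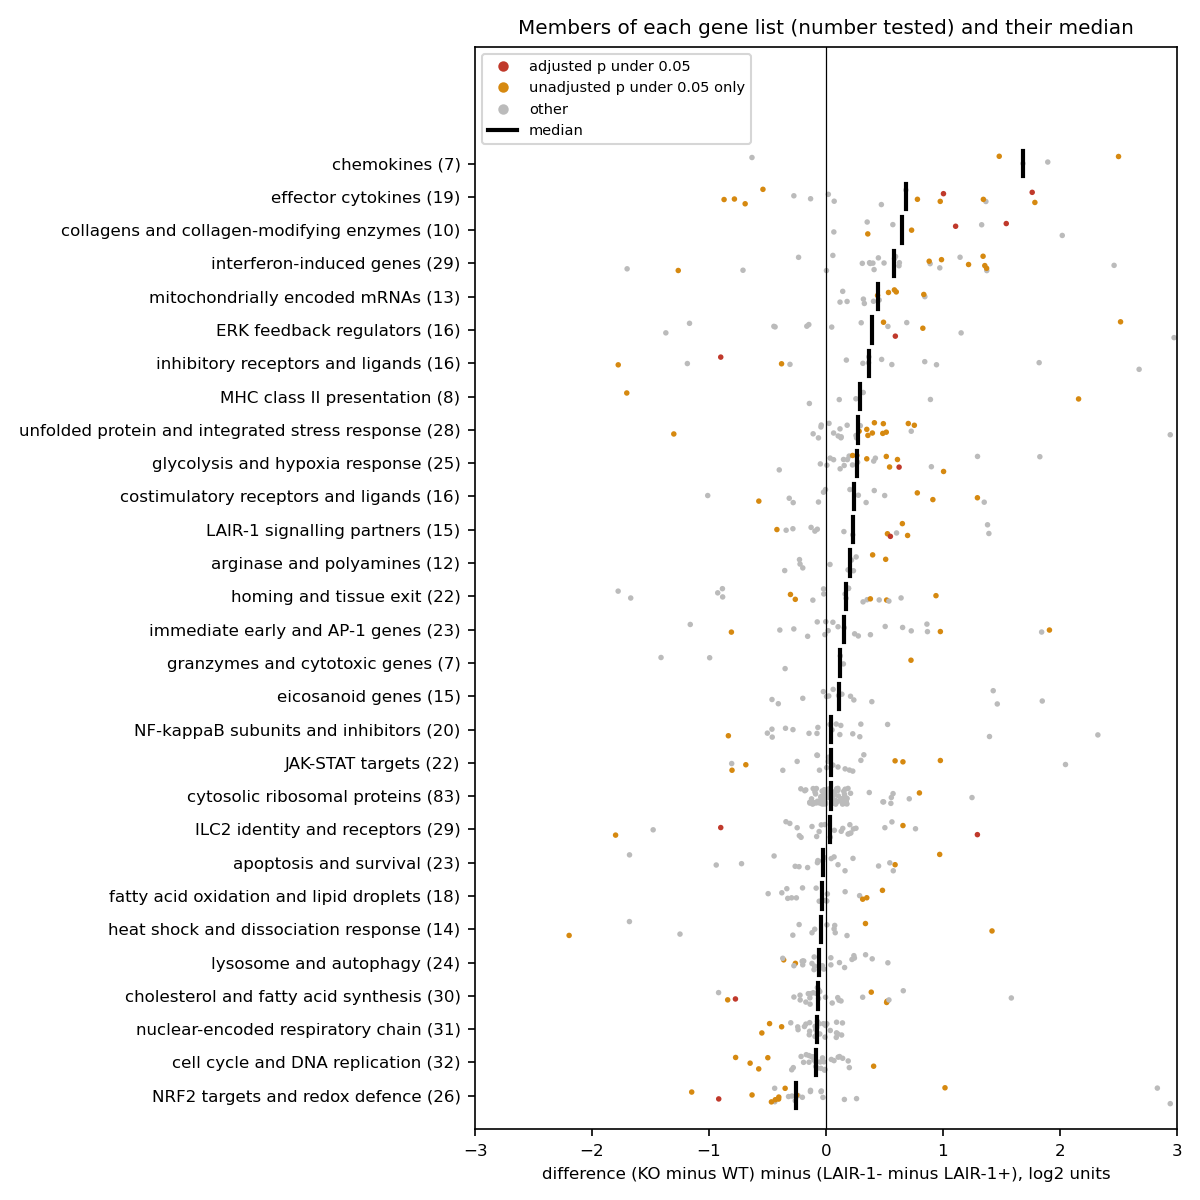
Difference in log2 units (x axis) of each tested member of 29 gene lists (points) and the median of each list (black bar), with the number tested in brackets; red points passed an adjusted p of 0.05 and orange points an unadjusted p of 0.05 only. The axis leaves out 16 members; the chemokine list has the highest median, 1.69 over 7 genes, the cytokine, collagen and interferon lists follow at 0.59 to 0.68, and the NRF2 list has the lowest, -0.26.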

How the data were processed

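RNA of 12 libraries was sequenced. The authors deposited, per experiment, estimated counts per gene and the same genes as CPM, per the file headers; the deposited CPM equal the count scaled to a library total, plus 0.0001. Per the submitters' processing notes, reads were handled with STAR 2.5.3a, bcl2fastq 2.17.1.14 and Partek against mm10; for the counting tool and annotation, nothing is stated in the sources used here. Every sample column was used.

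The tables were joined by gene identifier (17505 genes) or symbol (17). Estimated counts were rounded, filtered with filterByExpr and scaled by TMM over all libraries. The contrast was tested in edgeR 4.0.16 (R 4.3.3) by its quasi-likelihood F statistic in 1 fit of the 4 group means, Benjamini-Hochberg adjusted over all genes, at 0.05; the test was tried on simulated counts. CPM in the text are TMM-scaled unless called the authors'. Libraries held 18061470 to 28290487 estimated counts.

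Named were Lair1, 16 ILC2 genes, genes past the threshold whose mean log2 CPM was 3 or more (predicted genes left out; up to 12 per direction, those passing every leave-one-out fit first) and up to 4 passing members per list. Members and the 44 lists (673 genes) were chosen with earlier results of these data known. Alternatives used DESeq2 1.42.0 and limma 3.58.1 (voom, or trend on the authors' CPM), other scalings, filters and spreads, and each library left out; leaving out WT 9 and WT 10 together was chosen after seeing the data.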

Additional observations from a re-analysis of the deposited data

How the results depend on the processing

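No paired analysis was run. The groups compared share fewer than 2 replicate numbers, and the labels do not say whether LAIR-1- and LAIR-1+ libraries came from the same mice. Against the 29 genes that passed, 53 passed with a mean of at least 50 CPM (23 shared), 231 with DESeq2 (all 29 shared), 13 against a 1.2-fold difference and 6 without WT 9 and WT 10 (4 shared); the first tests fewer genes and the third asks for a larger difference, and for the others the cause was not tested. With 1 library left out, between 3 and 236 genes passed. The count was 45 without KO 13, 6 without WT 10 and 236 without WT 11 (195 above 0 and 41 below). It was 3, 9 and 8 without LAIR-1- 7, 8 and 10, and 3, 6 and 4 without LAIR-1+ 1, 2 and 3. The other 9 alternatives gave 21 to 37 genes. Of the 29 genes, 23 passed with each experiment's own spread and 19 with limma-voom weights per experiment. None of the 29 genes changed sign under any alternative in which it was tested. Named genes were on the same side of the threshold in 302 of 468 leave-one-out values and in 441 of 501 others. Of the 39 named genes, 25 had passed, and the other 166 leave-one-out values were all lost calls of these 25. The 302 include every value of the named genes that had not passed, none of which passed in any leave-one-out fit. Fitted alone, the median SE was 0.34 for KO minus WT and 0.15 for LAIR-1- minus LAIR-1+.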

Other observations

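When only the 4615 genes averaging 50 CPM or more were fitted, 53 passed (1.15%), 34 above 0 and 19 below, and 30 of these did not pass over all genes. Some extended the patterns described above; they were chosen for mention after their values were seen. Xbp1, the transcription factor of the secretory stress response, had a difference of 0.72 ± 0.14 in that fit (SE, n = 3 libraries per group; edgeR, adjusted p = 0.0171). Cpd, a carboxypeptidase that trims secreted peptides, was at 300 ± 40.7 CPM in KO and 129 ± 29.4 CPM in WT, and at 251 ± 47.2 CPM in LAIR-1- and 260 ± 41.8 CPM in LAIR-1+ (SD, n = 3 each; 1.24 ± 0.23, adjusted p = 0.011). Il18rap, a subunit of the IL-18 receptor, was at 163 ± 13.9 CPM in KO and 125 ± 35.2 CPM in WT, and at 76.1 ± 11.5 CPM in LAIR-1- and 128 ± 14.8 CPM in LAIR-1+ (1.10 ± 0.24, adjusted p = 0.0354). Itgb1, the beta chain of the integrins that bind collagen, was at 226 ± 39.0 CPM in KO and 197 ± 20.7 CPM in WT, and at 97.6 ± 15.4 CPM in LAIR-1- and 163 ± 8.48 CPM in LAIR-1+ (0.91 ± 0.19, adjusted p = 0.0222).

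Below 0 in that fit were the AP-1 factor gene Jund (-0.85 ± 0.16, adjusted p = 0.016) and the costimulatory receptor gene Tnfrsf18 (-0.61 ± 0.14, adjusted p = 0.0354). Tnfrsf18 was at 317 to 430 CPM in KO and 415 to 441 CPM in WT, and at 420 to 469 CPM in LAIR-1- and 316 to 360 CPM in LAIR-1+. The chemokine gene Cxcl3 differed in level between the experiments, at 488 ± 192 CPM in KO and 362 ± 19.5 CPM in WT, and at 10.6 ± 1.49 CPM in LAIR-1- and 21.9 ± 3.35 CPM in LAIR-1+ (1.44 ± 0.32, adjusted p = 0.0348). The mast cell tryptase gene Tpsab1 was at 3.06 ± 3.23 CPM in KO and at 0 in every WT library, and at 57.5 ± 13.5 CPM in LAIR-1- and 222 ± 2.54 CPM in LAIR-1+, so no fold is given for it (adjusted p = 0.0104). Cxcl3 entered that fit through its level in the KO and WT libraries, and Tpsab1 through the sorted ones. For Tpsab1 KO and WT overlapped. It did not pass over all genes (edgeR, adjusted p = 0.114), in limma-voom (0.534) or with each experiment's own spread (0.406).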
